A study of Homo sapiens with 6 samples.

Results

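TP63, SOX2, GRHL1, GRHL2, GRHL3, OVOL1, ZNF750, EHF and ELF3 are 9 genes for transcription factors of epithelial cells, and their messenger RNA levels were followed in high-metastatic and wildtype colorectal cancer cells. They were found by symbol, each in 1 row of a table of 24580 rows, of which 19974 carry an Ensembl identifier. The 9 genes were chosen by their names with the LoVo-HM minus LoVo differences of these same libraries in view, so the differences of the 9 genes are given as a description without a test. RNA sequencing was done on LoVo-HM, described in the labels as high-metastatic, and on wildtype LoVo, an established human colorectal adenocarcinoma line. Each line had 3 libraries, no treatment is recorded for either, and how LoVo-HM was obtained from LoVo is not stated in the labels. They do not say that the 3 libraries of a line came from separate cultures, so p-values measure the spread between these libraries, which may be technical. The deposited unit is FPKM, a count of fragments divided by transcript length and by the size of the library, and the read depth is unknown. A level with ± is a mean and its SD over the 3 libraries of a line (n = 3). A log2 difference is the LoVo-HM mean less the LoVo mean of log2(FPKM + 1), with its SE, and it understates the change of weakly expressed genes.

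TP63 encodes p63, a transcription factor that maintains the basal layer of stratified epithelia such as skin. SOX2 is a pluripotency factor that also specifies foregut and other stratified epithelia. The grainyhead-like factors GRHL1, GRHL2 and GRHL3 activate genes of cell junctions and of the epidermal barrier, and GRHL2 and the zinc finger factor ZEB1 repress each other. OVOL1 is a zinc finger repressor of epidermal and germ cells that helps to keep cells epithelial, and ZNF750 drives terminal differentiation of keratinocytes downstream of p63. EHF and ELF3 are epithelium-specific members of the ETS family and are active in gut, airway and other lining epithelia. In a colorectal line EHF and ELF3 belong to the tissue of origin, whereas TP63 and SOX2 are better known from squamous and foregut epithelia.

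Upstream sequences are shown for TP63, SOX2, GRHL1, GRHL3 and ELF3 because they span the range of base composition among the genes with lower RNA in LoVo-HM and hold the motifs named here. Each is the 250 bases before a transcript start in RefSeq on GRCh38.p14, plus strand, written 5′ to 3′. Capitals mark the CCAAT box (CCAAT, or ATTGG where it lies on the other strand), the E-box CACCTG that ZEB and SNAIL repressors can bind, and the TATA box TATAAA. TP63 covers chr3:189631139-189631388, SOX2 covers chr3:181711675-181711924, GRHL1 covers chr2:9951443-9951692, GRHL3 covers chr1:24319107-24319356 and ELF3 covers chr1:202010337-202010586.
TP63: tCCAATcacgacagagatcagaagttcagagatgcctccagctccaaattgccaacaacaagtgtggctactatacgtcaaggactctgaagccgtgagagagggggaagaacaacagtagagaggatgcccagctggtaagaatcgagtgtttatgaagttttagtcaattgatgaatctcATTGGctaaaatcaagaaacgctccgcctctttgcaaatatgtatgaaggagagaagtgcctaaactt
SOX2: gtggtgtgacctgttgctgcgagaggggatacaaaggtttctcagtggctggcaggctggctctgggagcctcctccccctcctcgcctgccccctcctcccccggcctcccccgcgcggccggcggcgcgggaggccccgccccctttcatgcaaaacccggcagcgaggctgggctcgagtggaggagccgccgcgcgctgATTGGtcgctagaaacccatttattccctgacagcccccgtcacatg
GRHL1: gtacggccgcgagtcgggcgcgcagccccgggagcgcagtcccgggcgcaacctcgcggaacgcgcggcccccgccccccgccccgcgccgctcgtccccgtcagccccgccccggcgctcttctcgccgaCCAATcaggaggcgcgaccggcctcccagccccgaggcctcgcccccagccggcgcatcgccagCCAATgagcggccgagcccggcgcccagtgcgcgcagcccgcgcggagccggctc
GRHL3: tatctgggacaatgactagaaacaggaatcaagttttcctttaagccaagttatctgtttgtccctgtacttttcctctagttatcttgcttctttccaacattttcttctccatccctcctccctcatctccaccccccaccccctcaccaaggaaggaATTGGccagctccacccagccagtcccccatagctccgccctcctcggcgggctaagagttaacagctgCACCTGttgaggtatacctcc
ELF3: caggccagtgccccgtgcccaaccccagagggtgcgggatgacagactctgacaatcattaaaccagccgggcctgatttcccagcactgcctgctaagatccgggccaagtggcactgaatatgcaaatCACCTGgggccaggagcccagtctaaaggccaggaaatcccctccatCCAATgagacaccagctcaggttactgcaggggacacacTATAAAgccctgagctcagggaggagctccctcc

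RefSeq windows were matched for 6 of the 9 genes, 8 windows in all because GRHL3 and EHF have 2 each. No window was matched for GRHL2, OVOL1 and ZNF750. The TP63 window lies before the upstream starts of the long p63 forms, so its values concern those starts and not the internal ones. The windows ranged widely in composition. GRHL1 had 45 CpG dinucleotides at 81.6% GC, more CpG than 99.4% of the 35116 windows of the same length. SOX2 had 20 at 68.8% GC, while TP63 had 6 at 44.0% GC, and the median of all windows was 11 CpG and 58.0% GC. The CCAAT box was present on either strand in 7 of the 8 windows and in 32.0% of all windows. CACCTG was present in 2, the windows of GRHL3 and ELF3 shown above, against 17.5% of all windows, and TATAAA was present in 1, that of ELF3, against 10.7%. The GC box GGGCGG was in 3 of the 8 windows against 42.6% of all, and the SOX motif ACAATG was in 3 against 9.29%. The grainyhead motif AACNGGTT, the ETS motif CCGGAAG and the AP-1 motif TGANTCA were in 0 of the 8 windows, against 1.49%, 8.52% and 6.57% of all windows. None of the matches in the 8 windows overlapped a match of another of these motifs, and a match of letters does not show that a factor binds.

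TP63 had the widest gap of the 9 genes between the lines. TP63 (ENSG00000073282, chr3:189631416-189897279, plus strand, GRCh38) stood at 0.228, 0.344 and 0.316 FPKM in the LoVo-HM libraries, against 36.0, 34.5 and 37.9 FPKM in the LoVo libraries. The lowest LoVo library lay far above the highest LoVo-HM library. Its mean was 0.296 ± 0.0605 FPKM in LoVo-HM, against 36.1 ± 1.71 FPKM in LoVo, which is 122-fold lower by the means. The log2 difference was -4.84 ± 0.0548, the 13th lowest among the 14487 genes tested, which are those that average 0.5 FPKM or more across all 6 libraries. When 0.1 rather than 1 was added before taking logs, it was -6.53. By level, 1.35% of the tested genes lay at or below TP63 in LoVo-HM, against 86.7% in LoVo. The LoVo-HM mean of TP63 lies below 0.5 FPKM, so TP63 was tested only through its LoVo level. Genes low in both lines are not among the tested genes, so the 1.35% is not a place among all genes. TP63 makes long p63 forms with a transactivation domain from upstream starts and shorter ΔNp63 forms from internal starts. GENCODE 29 lists 5 protein-coding transcripts from the upstream starts and 7 from the internal starts. A level per gene cannot separate these forms.

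SOX2 was also far lower in LoVo-HM, with hardly any spread between libraries. SOX2 (ENSG00000181449, chr3:181711924-181714436, plus strand) had 4.38, 4.46 and 4.55 FPKM in LoVo-HM libraries, against 32.7, 32.7 and 32.6 FPKM in LoVo libraries. The groups did not overlap, and the SD of the LoVo libraries was 0.170% of their mean. Means were 4.46 ± 0.0833 FPKM in LoVo-HM, against 32.7 ± 0.0556 FPKM in LoVo, 7.32-fold lower in LoVo-HM, with a log2 difference of -2.62 ± 0.0128. Unlike TP63, SOX2 kept a mid-range level in LoVo-HM, where 34.9% of the tested genes lay at or below it, against 85.1% in LoVo. SOX2 lies inside SOX2-OT, a longer RNA gene on the same strand that has no row in the table used here, and reads of the overlap cannot be told apart.

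**Figure D1:**
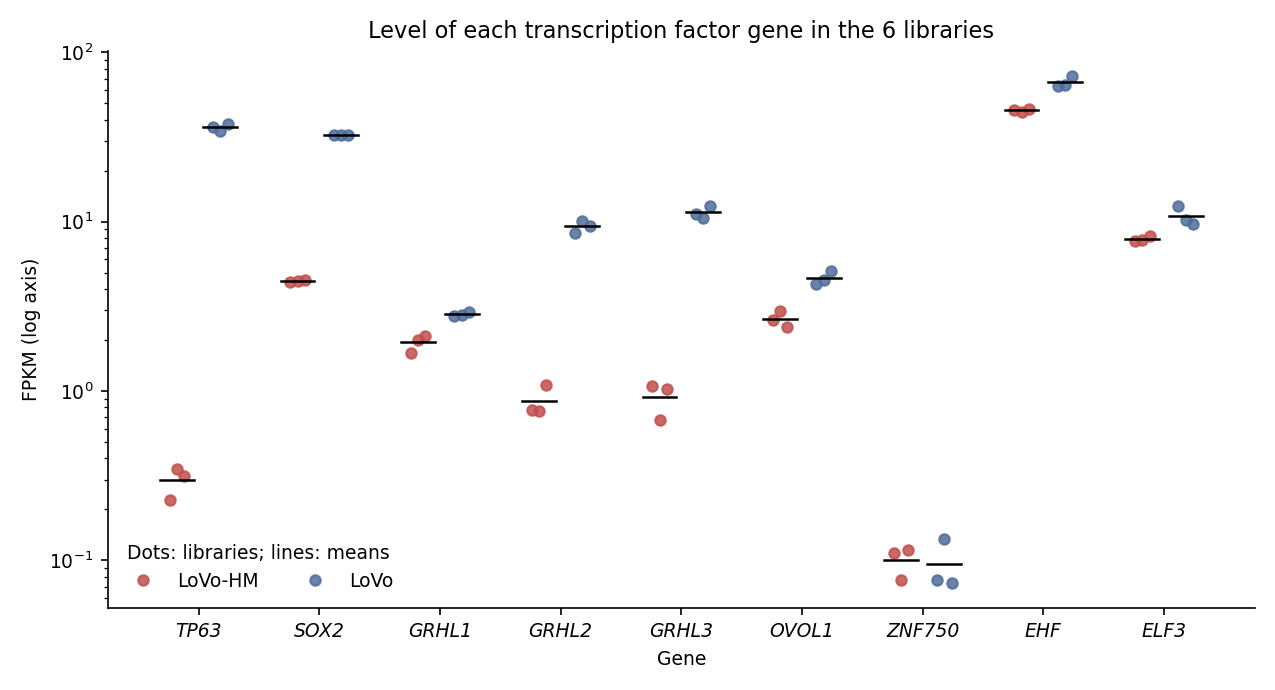
Level of each of the 9 transcription factor genes, as FPKM on a log axis, with 1 dot for each of the 3 LoVo-HM libraries (left of each pair) and the 3 LoVo libraries (right), and a line at each mean. The gap is widest for TP63 (0.296 against 36.1 FPKM) and the dots of the 2 lines overlap only for ZNF750.

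The 3 grainyhead-like genes were all lower in LoVo-HM, but by very different amounts. GRHL2 (ENSG00000083307, chr8:101492432-101669726) had 0.770, 0.757 and 1.08 FPKM in LoVo-HM libraries, against 8.60, 10.1 and 9.48 FPKM in LoVo libraries. GRHL3 (ENSG00000158055, chr1:24319322-24364482) had 1.07, 0.675 and 1.03 FPKM in LoVo-HM libraries, against 11.1, 10.5 and 12.4 FPKM in LoVo libraries. GRHL1 (ENSG00000134317, chr2:9951693-10002277) had 1.68, 2.00 and 2.13 FPKM in LoVo-HM libraries, against 2.76, 2.82 and 2.91 FPKM in LoVo libraries. In each of the 3 genes every LoVo-HM library lay below every LoVo library, but for GRHL1 the gap between the nearest libraries was small. By the means GRHL2 was 10.8-fold lower in LoVo-HM (log2 difference -2.48 ± 0.101), GRHL3 12.3-fold lower (-2.69 ± 0.116) and GRHL1 1.46-fold lower (-0.39 ± 0.0686). The summed level of the 3 genes was 3.73 ± 0.439 FPKM in LoVo-HM, against 23.6 ± 1.17 FPKM in LoVo. Their shares differed as well. GRHL1 made up 52.1 ± 5.51% of the sum in LoVo-HM and 12.0 ± 0.269% in LoVo. GRHL3, which gave the greatest share in LoVo at 48.2 ± 2.87%, gave 24.8 ± 5.34% in LoVo-HM. GRHL3 overlaps STPG1 on the opposite strand, where the strand setting of the counting is unknown, so reads of the shared bases cannot be told apart. STPG1 was at 3.64 ± 0.508 FPKM in LoVo-HM, against 5.73 ± 0.193 FPKM in LoVo, a smaller difference (-0.54 ± 0.0939) than that of GRHL3.

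OVOL1 (ENSG00000172818, chr11:65787022-65797219) had 2.63, 2.96 and 2.39 FPKM in LoVo-HM libraries, against 4.28, 4.51 and 5.13 FPKM in LoVo libraries. The groups did not overlap and the mean was 1.74-fold lower in LoVo-HM (log2 difference -0.62 ± 0.0914). Antisense genes overlap GRHL2, GRHL3, OVOL1 and ELF3, and without the strand setting their reads cannot be told apart from those of the 4 factors. ZNF750 (ENSG00000141579, chr17:82829435-82840578, minus strand) was near the floor of the table in both lines, at 0.111, 0.0763 and 0.115 FPKM in LoVo-HM libraries, against 0.0764, 0.134 and 0.0739 FPKM in LoVo libraries. These values overlap, and ZNF750 is the single gene of the 9 that fell below the filter on low values. It lies within TBCD on the opposite strand, a tubulin folding cofactor gene at 31.2 ± 0.833 FPKM in LoVo-HM, against 25.4 ± 1.01 FPKM in LoVo, so the low ZNF750 values could include reads of TBCD, which was not tested.

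EHF and ELF3 differed least among the genes for which the lines did not overlap, along with GRHL1. EHF (ENSG00000135373, chr11:34621093-34661057) had 45.5, 44.7 and 46.4 FPKM in LoVo-HM libraries, against 63.4, 63.7 and 72.4 FPKM in LoVo libraries. ELF3 (ENSG00000163435, chr1:202007945-202017188) had 7.68, 7.83 and 8.24 FPKM in LoVo-HM libraries, against 12.4, 10.2 and 9.74 FPKM in LoVo libraries. The groups did not overlap for either gene, though the lowest ELF3 library of LoVo lay near the LoVo-HM values. EHF was 1.46-fold lower by the means in LoVo-HM (log2 difference -0.54 ± 0.0635) and ELF3 was 1.36-fold lower (-0.40 ± 0.0998). Together with the SOX2 and TP63 values, this leaves 4 genes with a log2 difference below -1, namely TP63, SOX2, GRHL2 and GRHL3, and 5 with a mean less than 2-fold lower or no lower. The smallest fold of the 4 was 7.32, for SOX2, and the greatest of the rest was 1.74, for OVOL1.

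The order of the levels, which FPKM gives per length of transcript, differed between the lines, and TP63 changed its place most. In LoVo-HM it ran EHF, ELF3, SOX2, OVOL1, GRHL1, GRHL3, GRHL2, TP63 and ZNF750. Of the neighbours in that order the libraries of GRHL3 and GRHL2 overlapped, and those of the other pairs did not. In LoVo the order was EHF, TP63, SOX2, GRHL3, ELF3, GRHL2, OVOL1, GRHL1 and ZNF750, with overlap between GRHL3 and ELF3 and between ELF3 and GRHL2. EHF led in both lines. The 9 genes summed to 64.7 ± 1.33 FPKM in LoVo-HM, against 174 ± 7.22 FPKM in LoVo, and EHF alone gave 70.4 ± 0.569% of that sum in LoVo-HM, against 38.1 ± 1.37% in LoVo.

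Over all genes tested, 44.9% passed the threshold of a limma adjusted p of 0.05, 21.8% as higher and 23.1% as lower in LoVo-HM, and in 27.9% all LoVo-HM libraries lay below all LoVo libraries. Of the 9 genes 8 were tested, all 8 were called lower and in all 8 the LoVo-HM libraries lay below the LoVo libraries. Since the genes were chosen on this comparison, nothing is read from that count. The 6 libraries were alike in total, at 424624 to 428265 FPKM in LoVo-HM, against 434108 to 439082 FPKM in LoVo. Pearson correlations of log2 values across genes were 0.991 to 0.993 within a line and 0.936 to 0.938 between lines. In bulk RNA, fewer cells that express a gene and less RNA per cell cannot be told apart.

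Markers of the labelled cell type gave a mixed picture. Of 14 colorectal epithelial markers, 7 were tested. In LoVo-HM 5 were called higher (71.4%, beside 21.8% of all tested genes) and 2 lower (28.6%, beside 23.1%). The summed level of the 14 markers was 2235 to 2331 FPKM in LoVo-HM libraries, against 1872 to 1919 FPKM in LoVo libraries. Most of that sum came from 2 keratins of simple epithelia, named after their values were seen, KRT8 at 1348 ± 27.7 FPKM in LoVo-HM, against 1199 ± 15.0 FPKM in LoVo, and KRT18 at 859 ± 20.1 FPKM in LoVo-HM, against 549 ± 11.0 FPKM in LoVo. The intestinal homeobox gene CDX2 was at 14.7 ± 0.960 FPKM in LoVo-HM, against 8.39 ± 0.129 FPKM in LoVo, and the epithelial adhesion gene EPCAM at 51.7 ± 2.60 FPKM in LoVo-HM, against 128 ± 1.99 FPKM in LoVo. KRT20, a keratin of differentiated gut epithelium, was at 3.07, 2.39 and 3.30 FPKM in LoVo-HM libraries and listed at 0 in every LoVo library, while HNF4A, a nuclear receptor of gut and liver, was at 0.340 ± 0.206 FPKM in LoVo-HM, against 3.15 ± 0.326 FPKM in LoVo. CDX1, VIL1 and GPA33, further markers of intestinal epithelium, were listed at 0 in all 6 libraries. The identity of the lines was not tested. Markers of other cell types were low. The 9 fibroblast markers summed to 6.65 to 8.48 FPKM in LoVo-HM, against 9.99 to 12.2 FPKM in LoVo, with COL1A2 and FAP at 0. The 8 immune markers summed to 2.92 to 3.34 FPKM in LoVo-HM, against 3.84 to 4.02 FPKM in LoVo, with PTPRC at 0, and the 6 endothelial markers to 0.319 to 0.475 FPKM in LoVo-HM, against 0.158 to 0.237 FPKM in LoVo, with PECAM1 and KDR at 0.

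Relatives of the 9 genes moved in both directions. TP73, a relative of TP63 and a neural and ciliated cell factor, was at 7.92, 8.21 and 7.69 FPKM in LoVo-HM libraries, against 5.74, 5.93 and 6.16 FPKM in LoVo libraries (log2 difference 0.37 ± 0.0657, limma adjusted p = 0.00214). The groups did not overlap, and TP73 was higher in LoVo-HM while TP63 was lower.

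In the SOX family without SOX2, 8 of 19 genes were tested, with a median log2 difference of 0.53 beside 0.00 over all tested genes. Of these 5 rose (62.5%, beside 21.8% of all tested genes), 1 fell (12.5%, beside 23.1%) and 2 were not called. SOX9, a factor of intestinal stem and Paneth cells, was at 29.8, 28.9 and 29.0 FPKM in LoVo-HM libraries, against 1.53, 1.50 and 1.68 FPKM in LoVo libraries (log2 difference 3.56 ± 0.0636, limma adjusted p = 1.76e-09). SOX5, a partner of SOX9 in cartilage, was at 8.77 ± 0.568 FPKM in LoVo-HM, against 0.584 ± 0.102 FPKM in LoVo (2.63 ± 0.0903, limma adjusted p = 7.52e-08). SOX4, a progenitor factor, was at 25.6 ± 0.191 FPKM in LoVo-HM, against 9.65 ± 0.311 FPKM in LoVo, and SOX13 at 13.2 ± 0.319 FPKM in LoVo-HM, against 8.44 ± 0.578 FPKM in LoVo. SOX14 was the family member that fell, to 0.149 ± 0.0815 FPKM in LoVo-HM, against 1.68 ± 0.475 FPKM in LoVo. SOX18, an endothelial factor, was called higher (log2 difference 0.48, limma adjusted p = 0.0165), but limma adjusted p-values were 0.0611, 0.0586 and 0.0566 without LoVo-HM replicate 1, LoVo replicate 2 and LoVo replicate 3. SOX2 gave 4.46 ± 0.161% of all SOX FPKM in LoVo-HM, against 46.5 ± 1.16% in LoVo. SOX9 gave 29.2 ± 0.163% in LoVo-HM and 2.23 ± 0.116% in LoVo, so the leading SOX gene was SOX9 in LoVo-HM and SOX2 in LoVo.

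**Figure D2:**
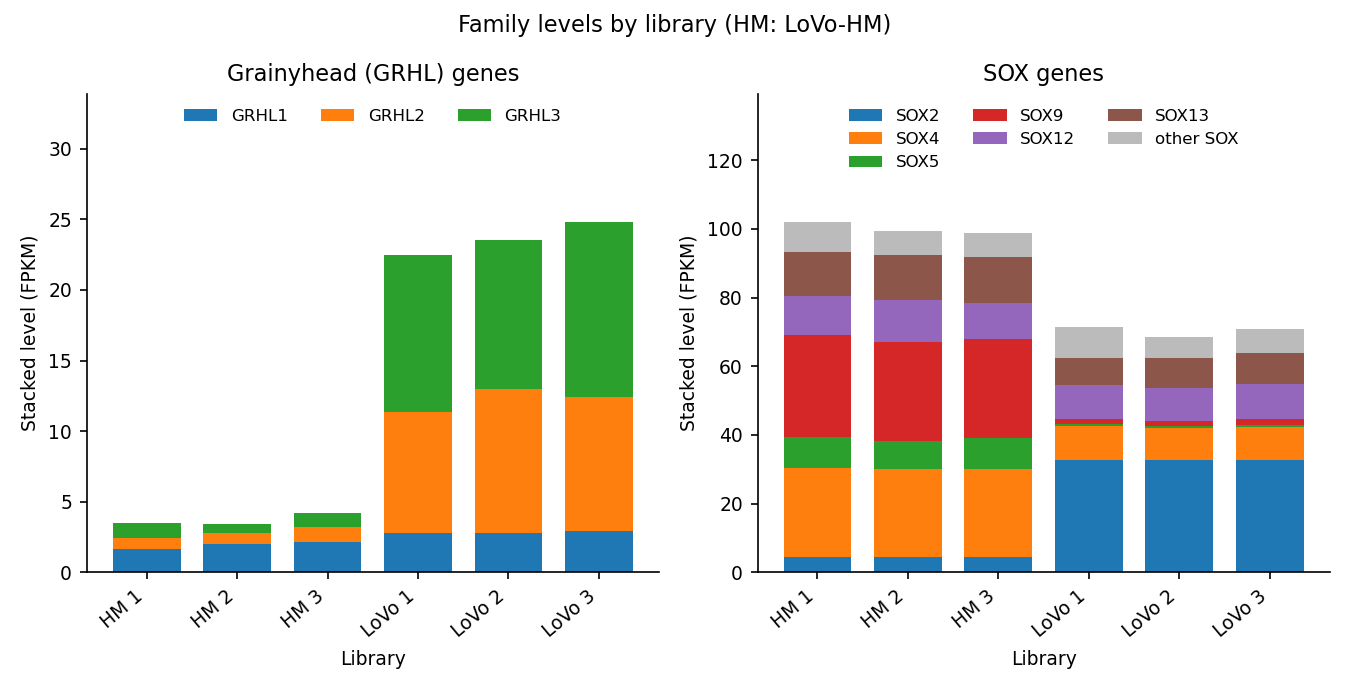
Stacked FPKM of the grainyhead-like and SOX genes in each library, with the 3 LoVo-HM libraries (HM 1 to HM 3) left of the 3 LoVo libraries and colours for genes. The grainyhead-like stack is far lower in LoVo-HM (3.73 against 23.6 FPKM), and the SOX stack is higher with SOX9 and SOX4 in place of SOX2.

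The other CP2-related genes, which share the DNA-binding fold of the grainyhead factors, moved little. TFCP2L1, a factor of kidney ducts and pluripotent cells, fell to 3.10 ± 0.273 FPKM in LoVo-HM, against 5.16 ± 0.109 FPKM in LoVo (log2 difference -0.59 ± 0.0803, limma adjusted p = 0.000439). TFCP2 was called higher by 0.20 (limma adjusted p = 0.0300), but without LoVo-HM replicate 1, LoVo-HM replicate 3, LoVo replicate 1 or LoVo replicate 2 the limma adjusted p was 0.0513, 0.0827, 0.0987 and 0.0745. It was 0.0550 with an untrended variance, and UBP1 was not called. The closest relative of OVOL1, OVOL2, which represses ZEB1 and holds epithelial identity, had 1.65, 1.40 and 0.901 FPKM in LoVo-HM libraries, against 4.27, 4.68 and 5.22 FPKM in LoVo libraries. That is a log2 difference of -1.31 ± 0.133 (limma adjusted p = 7.54e-05), further from 0 than that of OVOL1 at -0.62. OVOL3 was not called.

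Of the other ETS genes 16 of 26 were tested, with a median log2 difference of 0.06. Among them 6 rose (37.5%, beside 21.8% of all tested genes), 5 fell (31.25%, beside 23.1%) and 5 were not called. ETV1, which growth factor signalling activates in several cancers, was at 8.25, 8.83 and 10.6 FPKM in LoVo-HM libraries, against 1.38, 1.49 and 1.38 FPKM in LoVo libraries (log2 difference 2.08 ± 0.0976, limma adjusted p = 5.77e-07). ETV5, of the same subfamily, was at 13.4 ± 0.715 FPKM in LoVo-HM, against 7.34 ± 0.523 FPKM in LoVo. ETV7, an interferon-responsive repressor, fell to 2.01 ± 0.467 FPKM in LoVo-HM, against 8.07 ± 0.806 FPKM in LoVo (-1.60 ± 0.123, limma adjusted p = 1.40e-05), and its relative ETV6 fell by 0.62 on the log2 scale. ELF1 and ELF4, broadly expressed relatives of EHF and ELF3, fell by 0.81 and 0.52. EHF gave 19.6 ± 0.114% of all ETS FPKM in LoVo-HM, against 25.2 ± 1.45% in LoVo.

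**Figure D3:**
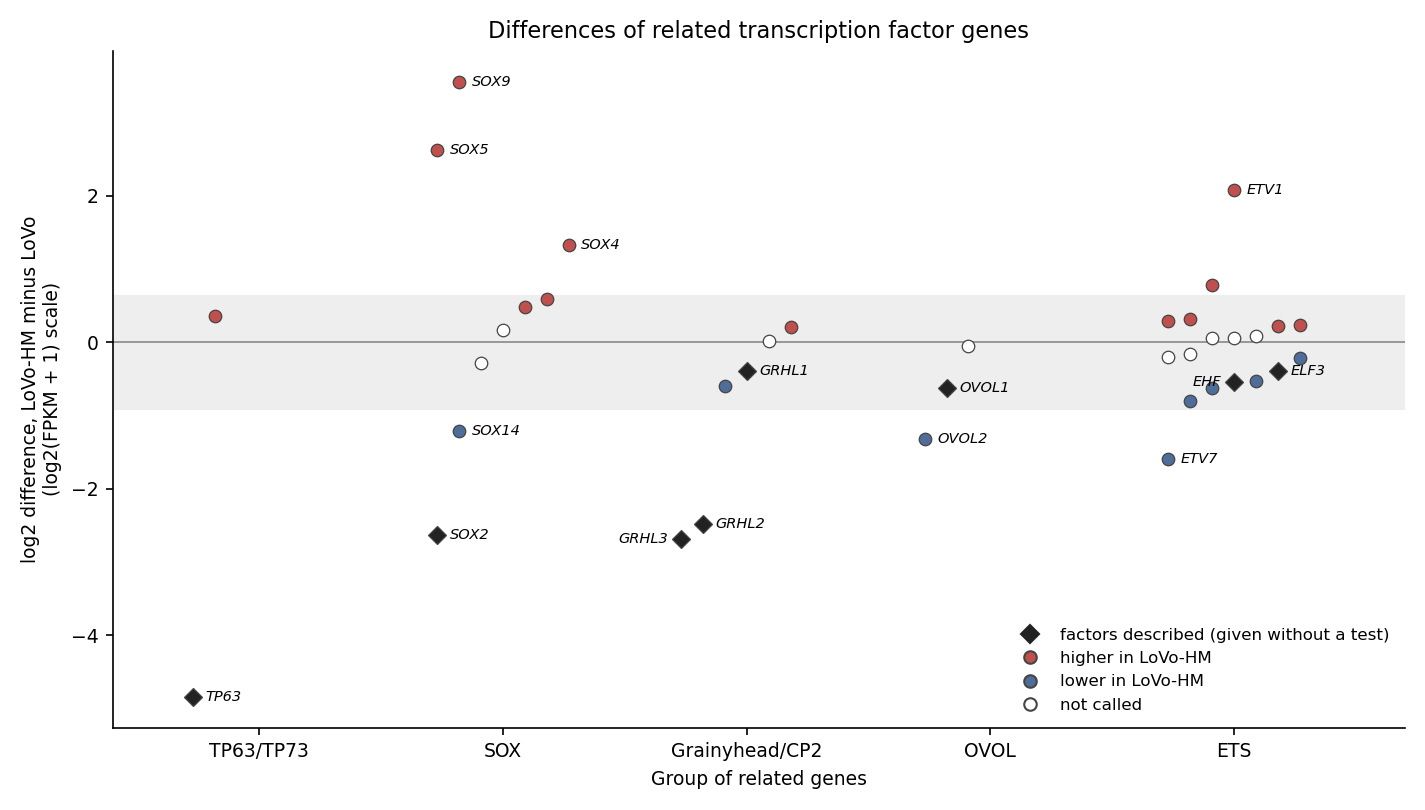
Log2 differences, LoVo-HM minus LoVo on the log2(FPKM + 1) scale, of the tested genes in 4 transcription factor families and of TP63 with its relative TP73, with diamonds for the genes described here without a test and circles for the others, coloured by whether limma called them higher, lower or not. The grey band spans the 5th to 95th percentile of all tested genes, -0.91 to 0.63, and TP63, SOX2, GRHL2 and GRHL3 lie below it while SOX9 at 3.56 and SOX5 at 2.63 lie above it.

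Genes known as p63 targets in keratinocytes mostly fell. Of 46 listed genes 41 were tested, 30 fell (73.2%, beside 23.1% of all tested genes), 5 rose and 6 were not called, with a median log2 difference of -0.51. Like the other lists here, this list was chosen with earlier results of these data known, so its shares are a description. The list was not split into genes that p63 activates and genes that it represses. KRT6A, a keratin of stressed and hyperproliferative epidermis, was at 0.671, 0.353 and 1.49 FPKM in LoVo-HM libraries, against 154, 147 and 151 FPKM in LoVo libraries (log2 difference -6.41 ± 0.185, limma adjusted p = 2.47e-08). It has near-identical paralogs, so the value of the gene itself is uncertain. COL17A1, the hemidesmosome collagen, fell to 0.438 ± 0.0530 FPKM in LoVo-HM, against 13.8 ± 0.295 FPKM in LoVo, and DSG3, a desmosomal cadherin of basal cells, fell to 1.22 ± 0.125 FPKM in LoVo-HM, against 14.5 ± 0.692 FPKM in LoVo. PERP, a desmosome-associated membrane protein, fell to 29.1 ± 1.03 FPKM in LoVo-HM, against 189 ± 2.12 FPKM in LoVo (-2.66 ± 0.0430, limma adjusted p = 1.02e-09). The 5 that rose included KRT5, the basal keratin, at 395, 406 and 385 FPKM in LoVo-HM libraries, against 39.4, 38.8 and 41.3 FPKM in LoVo libraries (3.28 ± 0.0425, limma adjusted p = 4.72e-10). Named after their values were seen, the other 4 that rose were KRT14, the filament partner of KRT5, at 2.29 ± 0.113 FPKM in LoVo-HM, against 0.276 ± 0.153 FPKM in LoVo, the Notch ligand JAG1, the growth factor receptor FGFR2 and the basement membrane protein FRAS1. The basal keratin pair thus went the other way from TP63 RNA.

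Known grainyhead targets fell in a like share. Of 30 listed genes 25 were tested, 18 fell (72.0%, beside 23.1%), 2 rose and 5 were not called, with a median log2 difference of -0.85. RAB25, a GTPase of apical recycling in epithelia, had 2.47, 1.92 and 1.32 FPKM in LoVo-HM libraries, against 37.7, 35.3 and 33.3 FPKM in LoVo libraries (log2 difference -3.67 ± 0.134, limma adjusted p = 1.10e-07). CDH1, the gene of E-cadherin, fell by 2.46 on the log2 scale, CLDN7, a tight junction claudin, by 1.32, PPL, a cornified envelope plakin, by 1.34 and ITGB6, an epithelial integrin, by 1.74. The gene that rose most was ZEB1, which GRHL2 represses, at 7.47, 6.83 and 7.52 FPKM in LoVo-HM libraries, against 0.166, 0.511 and 0.156 FPKM in LoVo libraries (2.71 ± 0.121, limma adjusted p = 4.15e-07). GRHL2 over ZEB1, as a ratio of FPKM, was 0.103, 0.111 and 0.143 in LoVo-HM libraries, against 51.8, 19.8 and 60.7 in LoVo libraries. The ratio was below 1 in every LoVo-HM library and far above 1 in every LoVo library. It is a description, since GRHL2 was chosen with this difference in view. ZEB1 averaged only 0.278 ± 0.202 FPKM in LoVo, so the size of the ratio there is uncertain.

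Of 25 genes known as ELF3 or EHF targets 13 were tested, 9 fell (69.2%, beside 23.1%), 3 rose and 1 was not called, with a median log2 difference of -1.29. The list shares CDH1, CLDN7, EPCAM and ST14 with the grainyhead list, DSP with the p63 list, and EPCAM, KRT8 and KRT18 with the colorectal markers. CCL20, a chemokine of inflamed gut epithelium, was at 0.233, 0.208 and 0 FPKM in LoVo-HM libraries, against 4.75, 7.21 and 6.96 FPKM in LoVo libraries (log2 difference -2.66 ± 0.155, limma adjusted p = 2.25e-06). KRT4, a mucosal keratin, fell to 1.80 ± 0.415 FPKM in LoVo-HM, against 11.0 ± 0.778 FPKM in LoVo, and DSP, the desmosomal linker desmoplakin, fell to 19.4 ± 0.434 FPKM in LoVo-HM, against 71.2 ± 2.41 FPKM in LoVo. LCN2, an iron-binding defence protein, was listed at 0, 0.364 and 0 FPKM in LoVo-HM libraries, against 1.83, 2.97 and 2.11 FPKM in LoVo libraries. EHF and ELF3 themselves had smaller log2 differences, -0.54 and -0.40, than the median of this list.

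Genes reported to be induced or repressed by ZNF750 were tested for 10 of 22, with a median log2 difference of -0.37. Of these 7 fell (70.0%, beside 23.1% of all tested genes), 0 rose and 3 were not called. They included SERPINB5, an epithelial serpin, at 2.30 ± 0.188 FPKM in LoVo-HM, against 26.8 ± 0.880 FPKM in LoVo. KLF4, a differentiation factor of gut and skin, fell by 0.69 on the log2 scale, VEGFA by 0.45 and ITGA6 by 0.32. ALOX12B, an epidermal lipoxygenase, was called lower (-0.42, limma adjusted p = 0.0223), but without LoVo-HM replicate 2, LoVo-HM replicate 3, LoVo replicate 1 or LoVo replicate 3 the limma adjusted p was 0.0658, 0.0719, 0.0764 and 0.0678. It was 0.0650 after quantile normalization and 0.0564 without the filter on low values. ZNF750 itself showed no difference beyond its spread.

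**Figure D4:**
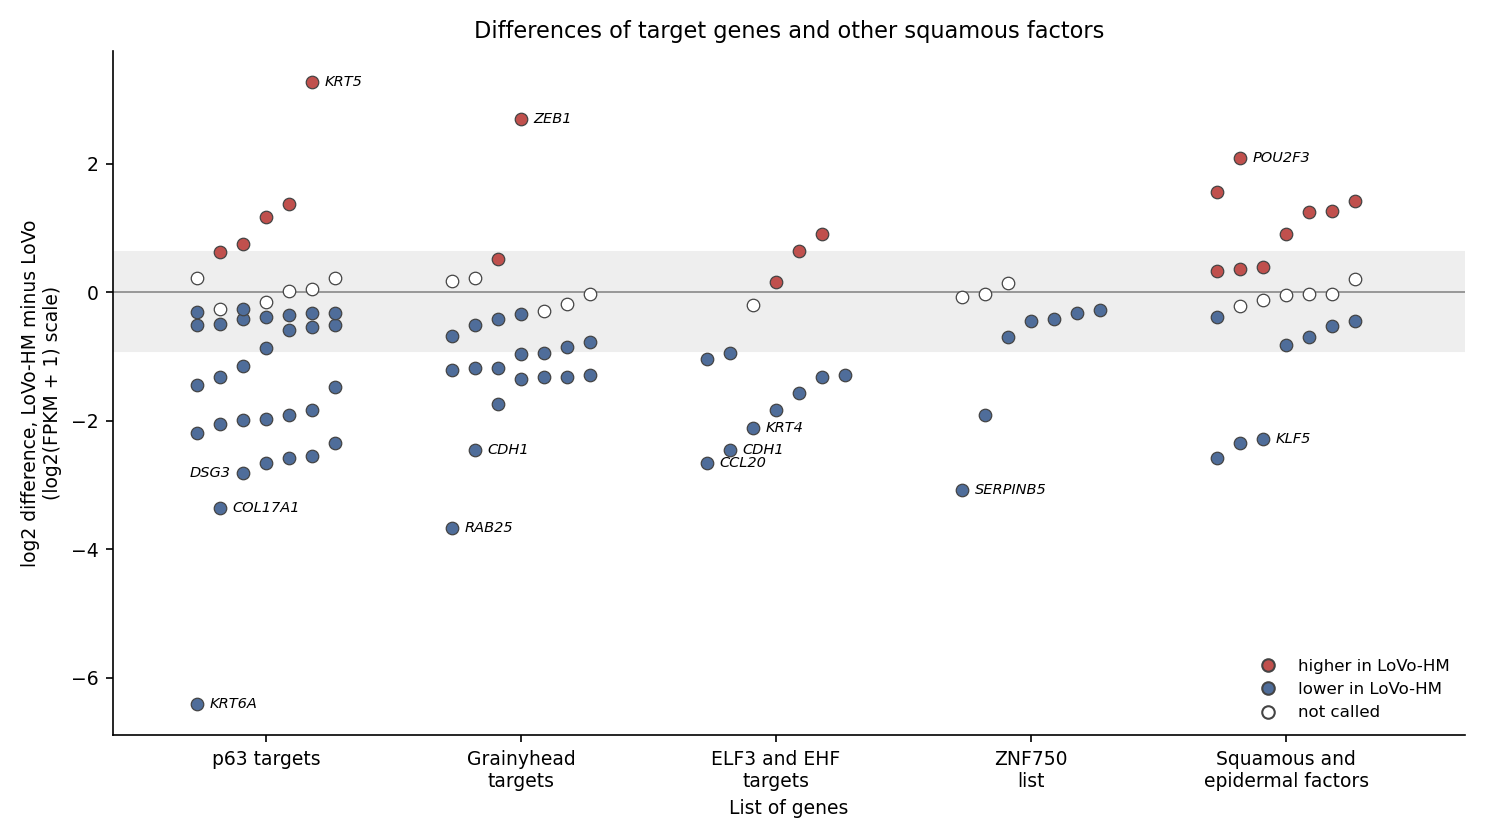
Log2 differences, LoVo-HM minus LoVo on the log2(FPKM + 1) scale, of every tested gene in 4 target lists and a list of other squamous and epidermal factors, with circles coloured by whether limma called the gene higher, lower or not in LoVo-HM. Most circles of the target lists lie below 0, with KRT5 at 3.28 and ZEB1 at 2.71 as the highest exceptions; the grey band spans -0.91 to 0.63, the 5th to 95th percentile of all tested genes.

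Other transcription factors of squamous and epidermal cells moved in both directions. Of 34 listed 23 were tested, with a median log2 difference of -0.02. Among them 9 rose (39.1%, beside 21.8% of all tested genes), 8 fell (34.8%, beside 23.1%) and 6 were not called. Among those that fell was TRIM29, a p63-associated regulator of basal cells, at 14.5, 14.2 and 15.1 FPKM in LoVo-HM libraries, against 95.2, 91.1 and 90.8 FPKM in LoVo libraries. KLF5, a proliferation factor of gut crypts and basal layers, fell to 37.0 ± 0.778 FPKM in LoVo-HM, against 184 ± 3.21 FPKM in LoVo (log2 difference -2.28 ± 0.0401, limma adjusted p = 1.71e-09). POU2F3, the tuft cell factor, rose to 17.5 ± 1.23 FPKM in LoVo-HM, against 3.32 ± 0.351 FPKM in LoVo (2.10 ± 0.0840, limma adjusted p = 2.07e-07). GATA3, a luminal and epidermal factor, was at 17.5 ± 1.46 FPKM in LoVo-HM, against 5.26 ± 0.211 FPKM in LoVo, and PRDM1, a repressor of differentiating cells, at 10.0 ± 0.864 FPKM in LoVo-HM, against 3.12 ± 0.390 FPKM in LoVo.

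Among partners and regulators of p63, SOX2 and ZNF750, 22 of 26 genes were tested, with a median log2 difference of 0.14. Of these 9 rose (40.9%, beside 21.8% of all tested genes), 4 fell (18.2%, beside 23.1%) and 9 were not called. SALL4, a pluripotency factor, rose to 2.93 ± 0.198 FPKM in LoVo-HM, against 0.985 ± 0.112 FPKM in LoVo. The ubiquitin ligases NEDD4 and MDM2 rose by 0.46 and 0.37 on the log2 scale. DICER1, a p63 target of microRNA processing, fell by 0.56, and POU5F1, the partner of SOX2 in stem cells, fell by 0.49, a value made uncertain by its expressed pseudogenes. Of 12 transcription factors that oppose the epithelial state 7 were tested, 3 rose (42.9%, beside 21.8%) and 2 fell (28.6%, beside 23.1%). Besides ZEB1, TCF4 rose to 6.69 ± 0.380 FPKM in LoVo-HM, against 3.72 ± 0.352 FPKM in LoVo, and PRRX1 rose to 2.41 ± 0.412 FPKM in LoVo-HM, against 1.42 ± 0.117 FPKM in LoVo. SNAI2, itself a p63-regulated factor, fell to 0.411 ± 0.151 FPKM in LoVo-HM, against 1.01 ± 0.205 FPKM in LoVo (-0.51 ± 0.131, limma adjusted p = 0.0129), and FOXC1 fell by 0.48.

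SOX2 and TP63 lie 7.92 Mb apart on the long arm of chromosome 3, a region often gained in squamous cancers. Of 67 genes between them 48 were tested, 8 rose, 16 fell and 24 were not called, with a median log2 difference of -0.03. The 16 that fell are 33.3% of those tested, beside 23.1% over all genes, and this share depended on the libraries used. It was lowest without LoVo replicate 1, where 15 rather than 24 genes were called and 10 fell, 20.8% beside 20.4% over all genes. With any other library left out it reached at most 29.2%, beside 21.6% without LoVo-HM replicate 3 and 20.3% without LoVo replicate 3. The gene just upstream of TP63, TPRG1, fell furthest among its neighbours, at 0.362, 0.183 and 0.231 FPKM in LoVo-HM libraries, against 7.85, 9.05 and 5.82 FPKM in LoVo libraries (log2 difference -2.75 ± 0.145, limma adjusted p = 1.16e-06). On the other side P3H2, a collagen prolyl hydroxylase gene, rose to 29.5 ± 1.52 FPKM in LoVo-HM, against 21.8 ± 0.633 FPKM in LoVo (0.42 ± 0.0558, limma adjusted p = 0.000397). The next gene, CLDN1, a tight junction claudin and listed p63 target, was not called, at 14.1 ± 1.26 FPKM in LoVo-HM, against 15.8 ± 0.723 FPKM in LoVo, and CLDN16 was too low to test. Further upstream BCL6 fell by 0.54, and LPP had a log2 difference of 0.25 with a limma adjusted p of 0.0421, which lay between 0.0599 and 0.107 when any of the 6 libraries was left out and was 0.0779 with a replicate block.

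Around SOX2 the differences were small. TTC14, DNAJC19 and DCUN1D1 were not called. MCCC1, a mitochondrial carboxylase gene, fell to 14.2 ± 0.722 FPKM in LoVo-HM, against 19.8 ± 0.907 FPKM in LoVo. FXR1 had a log2 difference of 0.39 (limma adjusted p = 0.0350), with a limma adjusted p of 0.102 without LoVo-HM replicate 1, 0.0549 without LoVo-HM replicate 2, 0.101 without LoVo replicate 1 and 0.109 without LoVo replicate 3. It was 0.0895 without the filter on low values and 0.0610 with an untrended variance. ATP11B had a log2 difference of -0.24 (limma adjusted p = 0.0198), with a limma adjusted p of 0.0609 and 0.0597 without LoVo-HM replicates 1 and 2 and 0.0541 and 0.0559 without LoVo replicates 1 and 2. Between the 2 factors LAMP3, a dendritic cell and interferon-induced lysosomal gene, fell to 3.33 ± 0.270 FPKM in LoVo-HM, against 11.6 ± 0.826 FPKM in LoVo, and IGF2BP2, an oncofetal RNA-binding protein gene, rose to 45.7 ± 1.18 FPKM in LoVo-HM, against 25.4 ± 1.16 FPKM in LoVo.

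**Figure D5:**
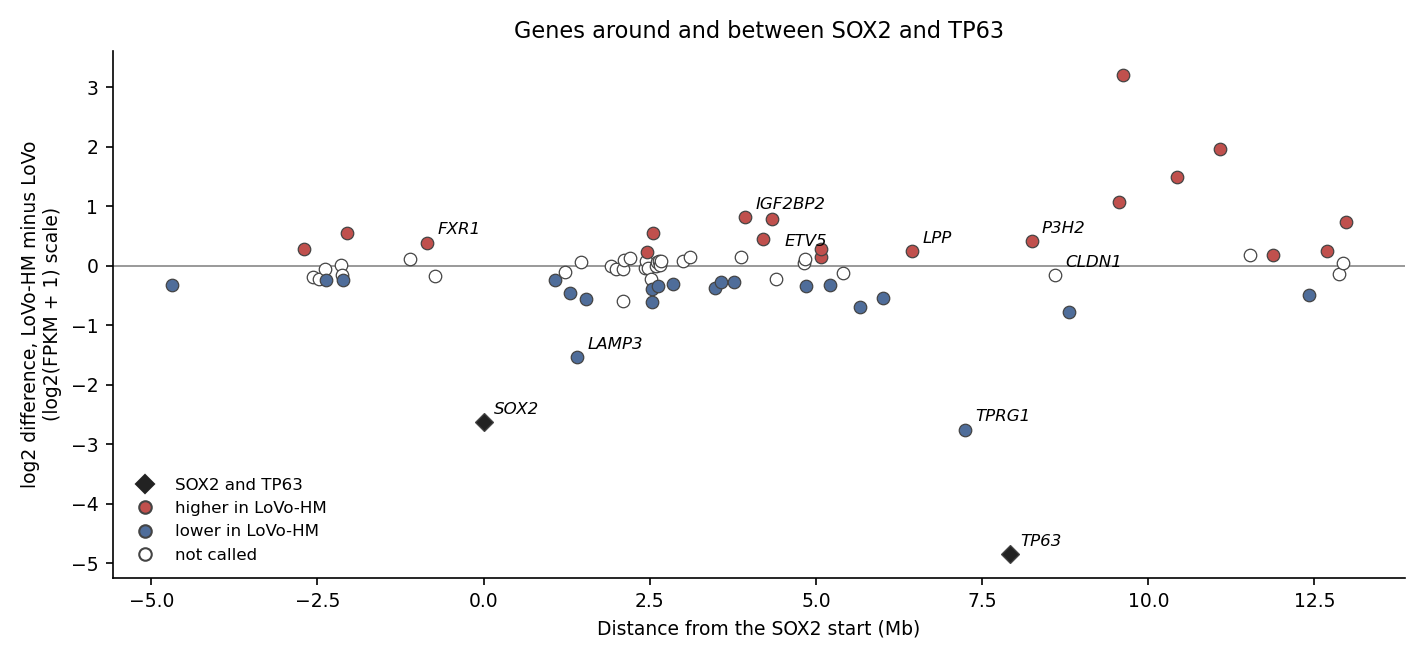
Log2 difference, LoVo-HM minus LoVo on the log2(FPKM + 1) scale, of tested genes against distance from the SOX2 start in Mb, with diamonds for SOX2 and TP63 and circles coloured by whether limma called the gene higher, lower or not in LoVo-HM. Most genes between the 2 diamonds lie near 0, and TPRG1 at -2.75 stands next to TP63 at -4.84.

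The genes with the pattern most like TP63 over the 6 libraries, by the root mean square distance of centred log2(FPKM + 1) values, were HLA-DQA1 (0.0562), ANXA8 (0.103), NTRK2 (0.139), HLA-DMB (0.152) and HLA-DMA (0.153). With 2 lines and 3 libraries each, the distance mostly matches genes by the size of their difference between the lines on the log2(FPKM + 1) scale. Genes alike on this scale can differ widely in their fold by FPKM where a level is near 0. HLA-DQA1, a chain of an antigen-presenting MHC class II molecule, was at 0.0721 ± 0.0332 FPKM in LoVo-HM, against 28.5 ± 0.0760 FPKM in LoVo, with reads that may be shared with its paralog. NTRK2, the receptor of the neurotrophin BDNF, was at 0.735 ± 0.0991 FPKM in LoVo-HM, against 58.2 ± 2.88 FPKM in LoVo, and ANXA8, an annexin with near-identical copies, at 1.65 ± 0.0963 FPKM in LoVo-HM, against 84.0 ± 3.36 FPKM in LoVo. The genes most like SOX2 were TRIM29 (0.0357), PERP (0.0357), CAV1 (0.0396), MACC1 (0.0416) and MISP (0.0453). CAV1, the gene of the caveolar coat protein, was at 145 ± 5.73 FPKM in LoVo-HM, against 936 ± 11.4 FPKM in LoVo. MACC1, a regulator of the receptor gene MET in colon cancer, was at 0.108 ± 0.0325 FPKM in LoVo-HM, against 5.59 ± 0.121 FPKM in LoVo. Its log2 difference of -2.57 was near the -2.62 of SOX2, but its fold by the FPKM means was far greater. TRIM29 and PERP also stand on the list of p63 targets.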

How the data were processed

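Total RNA was extracted with Trizol and sequenced from TruSeq libraries, per the labels' protocols, with 3 libraries for each of 2 lines. The authors deposited their FPKM values in a single table with 1 column for each library. GRCh38 was the genome build, per the submitters' processing notes. The sources used here name no aligner, counter, annotation release or strand setting, and depth is unknown. If 1 read gave a fixed step, ratios of low values would pile up: among 441 genes below 0.3 FPKM the fullest bin (0.05 log2 units wide) took 2.78% of them, so whole reads were not recovered and neither count models nor counting intervals were used.

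Deposited values were taken without rescaling as log2(FPKM + 1). The 14487 genes that average 0.5 FPKM or more were fitted together by limma 3.58.1 in R 4.3.3 (two-sided moderated test, trended variance), with Benjamini-Hochberg adjustment over all of them and a call at an adjusted p under 0.05. The SE of the 9 genes comes from their own spread, and that of other genes from limma. The fit was tested on simulated data. All 19974 Ensembl identifiers matched GENCODE 29.

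The 9 genes, the lists around them and the tests were chosen with earlier results of these data known. Genes named are the 9, up to 6 called genes of each list with the largest absolute log2 difference, 3 neighbours on each side of TP63 and SOX2, and the 5 most like each of these 2. Any other called gene is marked as chosen after seeing its value, except STPG1 and TBCD, which overlap members; list genes given as not called and markers at 0 are named as well. Some genes that the rule names are not reported here.

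The count of calls over all genes, the count of each list, and the differences of the 9 genes and of the named list and neighbouring genes were recomputed wherever the gene stayed in the fit (ZNF750 only without the filter) with a pseudocount of 0.1 or 0.5, without a filter or with one at 2 FPKM, after rescaling to equal totals, median-ratio scaling or quantile normalization, with an untrended or a robust variance, with a replicate block, and with each library left out in turn. Recomputing the counts of the smaller families, the markers, the ZNF750 list, the partners and the factors opposing the epithelial state was added after seeing the data.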

Additional observations from a re-analysis of the deposited data

How the results depend on the processing

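Over 16 alternatives, none of the 129 recomputed differences of the 9 genes changed sign, and 13 moved by more than the spread between libraries, mostly under smaller pseudocounts. With a pseudocount of 0.1 the log2 difference was -6.53 for TP63, -3.31 for GRHL2 and -3.51 for GRHL3. Without 1 library, TP63 ranged between -4.87 and -4.80 and SOX2 between -2.63 and -2.61. Of 1206 values of 76 named genes, 37 lost the call, 1 gained it and 0 reversed. RTP4, between SOX2 and TP63, lost its call without LoVo-HM replicate 1, LoVo replicate 1 or LoVo replicate 2 (limma adjusted p between 0.0601 and 0.0679) and without the filter (0.0541). The genes called between SOX2 and TP63 numbered 24, and from 15 (without LoVo replicate 1) to 20 when 1 library was left out. Among all genes, 3161 were called higher and 3347 lower with the deposited values, 3573 higher and 3066 lower after rescaling to equal totals, and 3646 higher and 2969 lower after quantile normalization, so which direction led depended on the scaling. With quantile normalization 12 of the 48 genes between SOX2 and TP63 fell (25.0%, beside 20.5% over all genes). Of the counts added after seeing the data, those of the ZNF750 list, the partners and the colorectal markers stayed within 1.5 times under all 16 alternatives. The factors opposing the epithelial state had 3 calls rather than 5 with a filter at 2 FPKM. Smaller counts moved too. The CP2-related genes had 1 call rather than 2 under several alternatives, such as an untrended variance. Fibroblast markers had 3 rather than 1 without the filter, and immune markers 0 rather than 1 after quantile normalization. Scalings shifted the median of all genes by at most 0.0389 log2 units. No depth is known, so values near 0, such as those of ZNF750, have no detection limit.

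The labels number the libraries of both lines 1 to 3. Deviations of same-numbered libraries correlated at -0.00701, 0.0215 and 0.0264 across genes, and those of other pairs at -0.0752 to 0.0548. No effect shared by number was seen, but this cannot show whether same-numbered libraries were handled together. With a replicate block 6459 genes were called, against 6508 without it.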

Other observations

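Downstream of TP63, beyond CLDN1, genes of chromosome 3 differed in both directions, and those given here are named after their values were seen. CCDC50, a ubiquitin-binding adaptor gene, was at 54.5 FPKM in LoVo-HM, against 5.03 FPKM in LoVo (log2 difference 3.21). MB21D2 was at 32.5 FPKM in LoVo-HM, against 7.58 FPKM in LoVo (1.97), and FGF12, an intracellular fibroblast growth factor homologue, at 2.64 FPKM in LoVo-HM, against 0.292 FPKM in LoVo (1.49). UTS2B, a urotensin peptide gene, was at 1.21 FPKM in LoVo-HM, against 0.0388 FPKM in LoVo (1.08). These genes start 9.56 to 11.1 Mb from the SOX2 start, on the far side of TP63, and all 4 were called higher by limma. Others on that side were called lower, among them IL1RAP, an interleukin 1 receptor subunit, at 4.62 FPKM in LoVo-HM, against 8.65 FPKM in LoVo (-0.78), and HES1, a Notch target, at 17.2 FPKM in LoVo-HM, against 24.6 FPKM in LoVo (-0.49).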
